A study of Mus musculus with 5 samples.

Results

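Tumor endothelial cells (TECs) from tumors of a mouse hepatoma line, Hepa1-6, were compared with TECs from tumors of the human hepatoma lines HAK-1B and KYN-2. Cells of each line had been injected into the left liver lobe of mice, and TECs were the cells pulled out of each digested tumor with magnetic beads against mouse CD31. Each kind of TEC was measured on 1 Agilent 60-mer array for mouse transcripts, and the 3 arrays were on 1 slide. The series holds 5 arrays, of which the array of cultured Hepa1-6 cells, on another slide, is used here as a description only. The sample labels give C57BL/6 as the strain of all 3 TEC samples and C57L for the cultured cells. The methods name female C57BL/6 or nude (BALB/c nu/nu) mice 6 weeks old without saying which host was used for which array, and where the labels have HAK-1B the array methods give Huh-7. The species of the tumor cells and the host therefore cannot be told apart. The sources do not say how many animals gave the RNA of an array. Signals were put on a log2 scale and quantile normalized over the 3 arrays, which gives every array the same set of values. A gene, taken by its brightest probe, was described when it was well above background on all 3 arrays, and it was called higher or lower when it was at least 4-fold away from both xenograft arrays in the same direction. Of 37074 gene names on the array, 19492 could be compared. Of these, 388 were higher in Hepa1-6 TECs (1.99%) and 591 were lower (3.03%). Between the 2 xenograft arrays, 468 genes (2.4%) were at least 4-fold apart in either direction. The same count for a single pair was 1817 (9.32%) between Hepa1-6 and HAK-1B TECs and 1708 (8.76%) between Hepa1-6 and KYN-2 TECs.

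Endothelial cells line the vessels that feed a tumor, and CD31, the product of Pecam1, sits at the junctions between them. Hepatoma cells often keep genes of the hepatocyte, such as those of plasma proteins, and take up genes of the fetal liver, such as Afp. Such transcripts are read by mouse probes when the tumor cells are mouse cells, and less well or not at all when they are human. A preparation of CD31-positive cells can also hold macrophages, lymphocytes and other blood cells. In bulk RNA, fewer cells of a type and less RNA per cell cannot be told apart.

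Each condition had 1 array, so no difference has a replicate check and precision is limited by that number. Probes well above background made up between 54.7% and 78.1% of the 56605 probes, with the highest share on the Hepa1-6 TEC array. The 75th percentile of the deposited signal was 510 for Hepa1-6 TECs, 446 for HAK-1B TECs and 259 for KYN-2 TECs, and no spot was saturated. The scanner software had marked between 41 and 150 spots per TEC array as outliers, most on the Hepa1-6 TEC array. The brightest spot of 11 higher genes was marked in this way, including 4 of the 10 with the largest difference, and of no lower gene. A marked spot held the probe of Lrp6, a Wnt co-receptor, which read 18.21 (log2 signal) in Hepa1-6 TECs, 10.22 in HAK-1B TECs and 10.12 in KYN-2 TECs. Another probe of Lrp6 read 7.49, 6.87 and 7.01 in the same order. The 11 genes are therefore given no further account.

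The 2 directions did not depend on the scaling to the same extent. When each array was instead scaled to its 75th percentile, 439 genes were higher and 71 were lower, against 388 and 591 after quantile normalization. Of the genes called after quantile normalization, 371 higher genes and 61 lower genes were called under both scalings (1.9% and 0.313% of the genes compared). The share of higher genes among all called genes was 39.6% after quantile normalization and 86.1% after 75th percentile scaling. Most lower genes were dim. Of the 591, 537 had a deposited signal under 100 on the Hepa1-6 TEC array, and 361 were under 100 on all 3 arrays. The deposited signal was higher on the Hepa1-6 TEC array than on the KYN-2 TEC array for 199 of them. The 61 genes lower under both scalings had a median deposited signal of 134 for Hepa1-6 TECs, 1172 for HAK-1B TECs and 456 for KYN-2 TECs. Lower genes named below are among the 61 unless the text says otherwise.

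**Figure D1:**
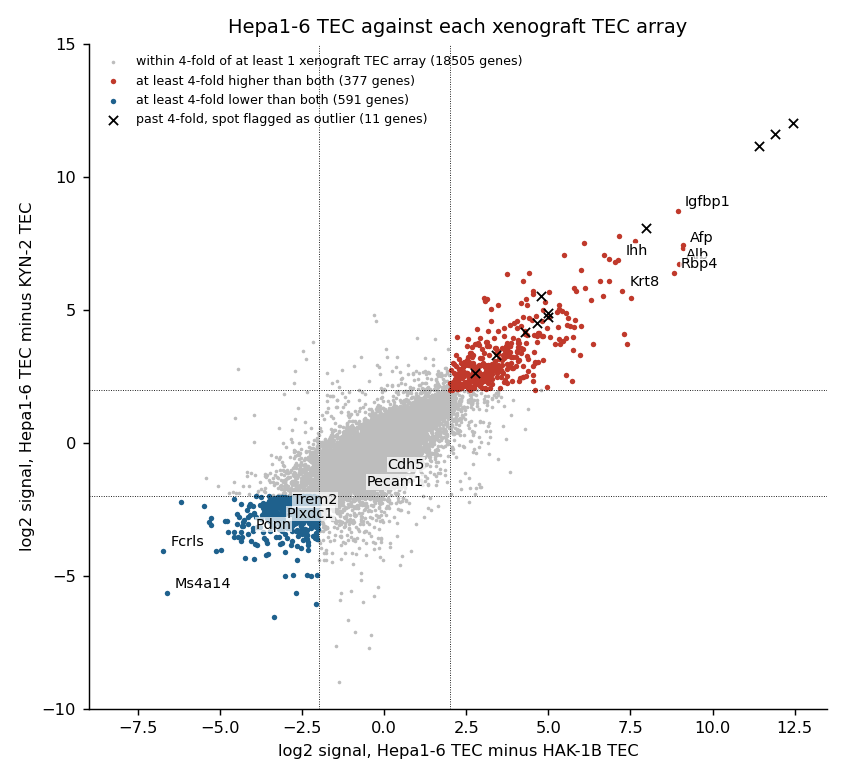
Difference in log2 signal between Hepa1-6 TECs and HAK-1B TECs (horizontal) and between Hepa1-6 TECs and KYN-2 TECs (vertical) for each of 19492 genes; dotted lines mark 4-fold and crosses are the 11 genes whose spot was marked as an outlier. The higher genes reach further from 0 than the lower genes, with Igfbp1, Afp and Alb at the upper right.

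**Figure D2:**
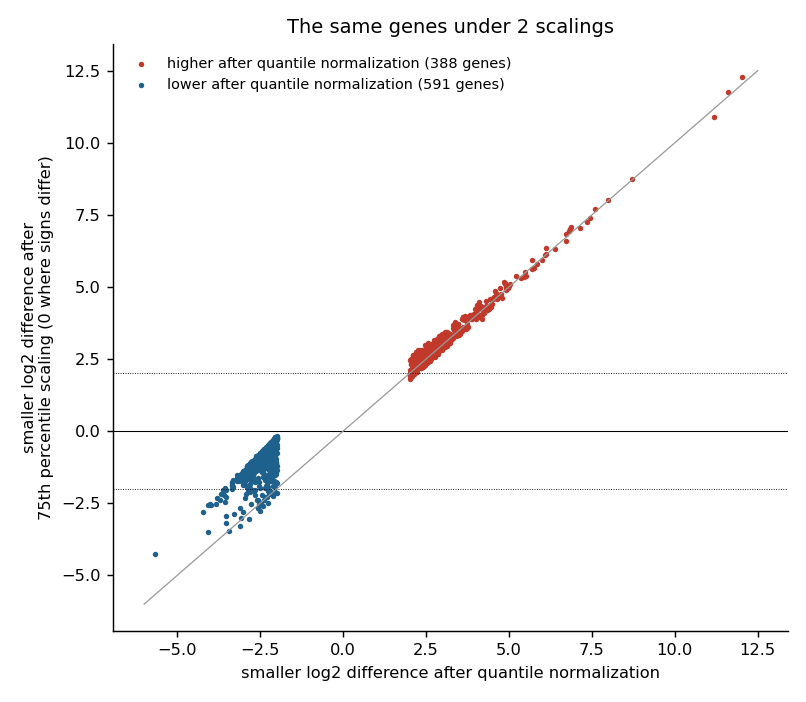
The smaller of the 2 log2 differences for each called gene after quantile normalization (horizontal) and after scaling to the 75th percentile (vertical); the grey line marks equal values and the dotted lines 4-fold. Higher genes lie along the line, whereas most of the 591 lower genes lie above it, between 4-fold lower and no difference.

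The largest differences among higher genes belonged to a liver-secreted protein, a fetal liver protein and genes of development and metabolism. Igfbp1, a binding protein for insulin-like growth factors secreted by the liver, read 15.34 (log2 signal) in Hepa1-6 TECs, 6.40 in HAK-1B TECs and 6.64 in KYN-2 TECs. The difference was 493-fold from HAK-1B TECs and 418-fold from KYN-2 TECs. Afp, the fetal counterpart of albumin, read 15.26, 6.16 and 7.92 in the same order. Alb, the main protein of plasma, read 15.41, 6.44 and 8.70. All 3 genes were near the top of the scale in Hepa1-6 TECs and below the median gene on both xenograft arrays. Rhox5, a homeobox gene of the X chromosome, read 14.88, 5.80 and 7.44. Ihh, a hedgehog ligand, read 12.19 in Hepa1-6 TECs, 5.07 in HAK-1B TECs and 5.33 in KYN-2 TECs. Urah, an enzyme of urate breakdown, read 12.58, 5.54 and 5.77, and Echdc2, named for its enoyl-CoA hydratase domain, read 12.38, 5.53 and 5.47. In each of these genes the 2 xenograft arrays lay closer to each other than either lay to the Hepa1-6 TEC array. Enpp2, the enzyme that makes lysophosphatidic acid, read 15.02, 7.87 and 7.25 with its brightest probe, but a second probe read 5.20, 6.71 and 6.34 and so lay the other way. Second probes of Alb and Rhox5 were also at least 4-fold higher, with smaller differences of 6.61 and 7.76 on the log2 scale. Over all higher genes, 59 had another probe well above background, and every such probe was at least 4-fold higher for 22 of them, higher by less for 18 and not higher than both arrays for 19.

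**Figure D3:**
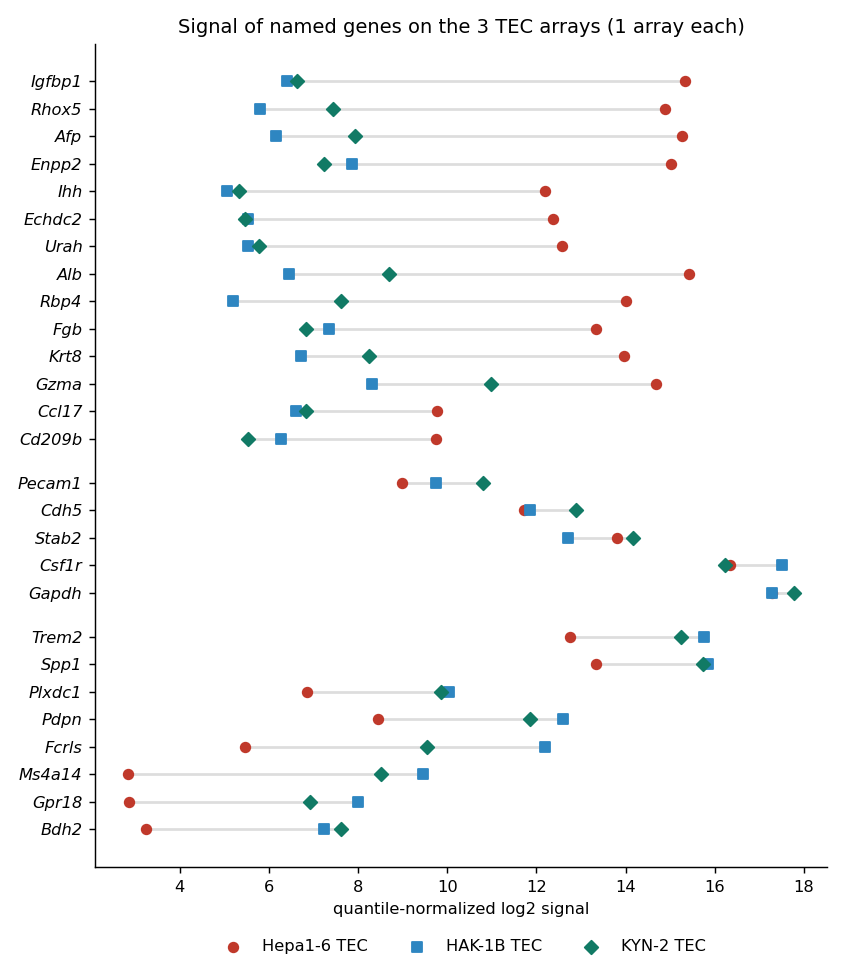
Quantile-normalized log2 signal of named genes on the 3 TEC arrays, 1 array each, with higher genes at the top, 4 cell type markers and Gapdh in the middle and lower genes at the bottom. In the top block every circle (Hepa1-6 TEC) lies to the right of both xenograft symbols and in the bottom block to the left, while the Hepa1-6 TEC symbol of Gapdh (17.29) is hidden by the HAK-1B TEC symbol (17.29).

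Hepatocyte genes were the list with the most higher members. Of 40 hepatocyte genes, 27 could be compared, 14 were higher under both scalings (51.9%, against 1.99% of all genes) and none was lower. The median difference over the 27 genes was 2.25 from HAK-1B TECs and 2.29 from KYN-2 TECs, against -0.18 and -0.20 over all genes (log2). Rbp4, which carries retinol in plasma, read 14.00 in Hepa1-6 TECs, 5.18 in HAK-1B TECs and 7.62 in KYN-2 TECs. Among genes of clotting, Fgb (fibrinogen beta) read 13.33, 7.34 and 6.84, Fgg (fibrinogen gamma) read 11.62, 6.61 and 5.95, and F2 (prothrombin) read 10.07, 5.53 and 7.53. The remaining higher members were Serpina1a, Apoh, Ahsg, Hpx, Ambp, Tat, Cyp2e1, Itih4 and Kng1, which encode plasma proteins and liver enzymes. A second probe of Itih4 read 4.90, 5.70 and 5.42 in the same order and so lay the other way. Serpina1a read 12.21, 9.54 and 9.64, and it has near-identical copies that a probe may share. With the normexp background correction, Tat, Cyp2e1 and Itih4 fell short of 4-fold (smaller differences of 1.44, 1.79 and 1.73 on the log2 scale). The list did not move as a whole. G6pc, the last enzyme of glucose release, read 3.40 in Hepa1-6 TECs, 5.15 in HAK-1B TECs and 6.57 in KYN-2 TECs, and Arg1, the last enzyme of the urea cycle, read 13.57, 14.59 and 14.89. Slc10a1, a bile acid carrier of the hepatocyte, read 17.64, 17.98 and 17.87, close to the brightest value of each array.

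Some hepatocyte genes were absent from the comparison because they were not well above background on a xenograft array. For such a gene, the xenograft value was set to the higher of its own value and the lowest signal well above background on that array, and the mean of the 2 arrays was taken, which gives a lower bound of the difference from that mean. For a gene above background on both xenograft arrays only, the bound is that of their mean over the Hepa1-6 TEC value set in the same way, and it can be smaller against 1 of the arrays. Pck1, an enzyme of glucose synthesis, was at least 7.40-fold higher in Hepa1-6 TECs, and Fga, fibrinogen alpha, at least 4.68-fold. Apoa1, the main protein of high-density lipoprotein, read 8.68 in Hepa1-6 TECs and 6.66 in KYN-2 TECs and was not well above background in HAK-1B TECs. Apob, Ttr, Hnf4a and Itih2 were likewise measured on 1 of the 2 xenograft arrays, KYN-2. Cps1, the first enzyme of the urea cycle, lay the other way. It was above background on both xenograft arrays (5.89 in HAK-1B TECs and 6.94 in KYN-2 TECs) and not on the Hepa1-6 TEC array, with a bound of at least 14.2-fold below the xenograft mean, or 5.94-fold after 75th percentile scaling. Counted over all 40 hepatocyte genes, those above background numbered 39 in Hepa1-6 TECs, 28 in HAK-1B TECs and 33 in KYN-2 TECs, where all 37074 gene names had 29329, 21355 and 20428. The ratio of Hepa1-6 TECs to HAK-1B TECs was thus near that of all genes, and the ratio to KYN-2 TECs was below that of all genes.

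**Figure D4:**
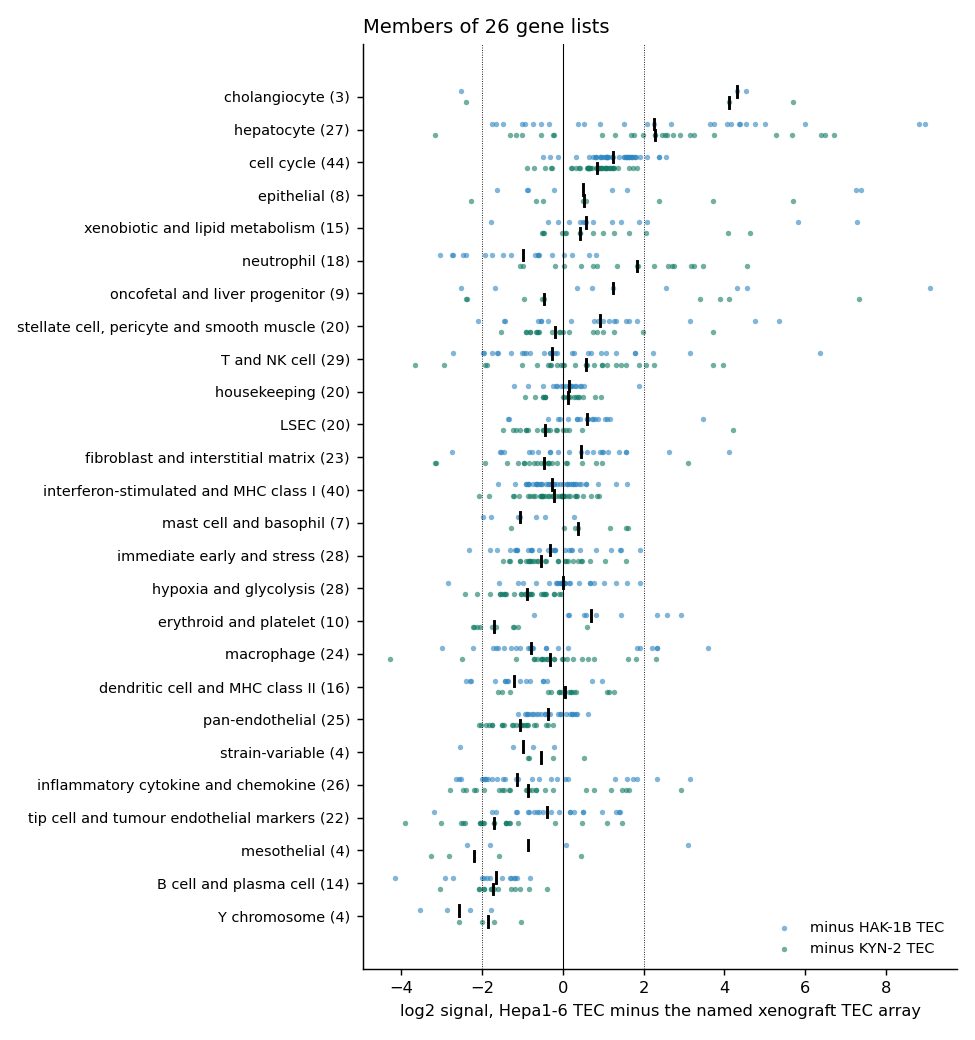
Difference in log2 signal between Hepa1-6 TECs and each xenograft TEC array for the members of 26 gene lists; each point is a gene, black bars are medians, the number of genes compared stands in parentheses and dotted lines mark 4-fold. Hepatocyte genes have medians of 2.25 and 2.29, and all 14 B cell genes lie to the left of 0 against both arrays.

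Promoters of the called genes were searched for short motifs on either strand within 250 bases before the start. The TATA box TATAAA, a search added after values were seen, was found in 38 of 307 promoters of higher genes (12.4%), 37 of 334 promoters of lower genes (11.1%), 1139 of 14784 promoters of all genes compared (7.70%) and 4063 of 32851 promoters of the reference (12.4%). A match is a description of the letters and not a site of binding. Promoters of Afp, Rbp4 and Cyp2e1, 3 higher genes of the liver with a match, are shown in RefSeq sequence of build GRCm38.p6, 5′ to 3′ and ending at the base before the start, with the match in capitals. The stretches are chr5:90490464-90490713 and chr7:140763569-140763818 on the plus strand and chr19:38124812-38125061 on the minus strand.
Afp: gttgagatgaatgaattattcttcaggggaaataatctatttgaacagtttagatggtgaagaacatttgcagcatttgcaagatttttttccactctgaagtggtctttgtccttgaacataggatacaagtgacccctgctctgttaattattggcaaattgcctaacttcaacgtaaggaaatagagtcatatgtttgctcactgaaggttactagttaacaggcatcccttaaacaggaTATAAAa
Rbp4: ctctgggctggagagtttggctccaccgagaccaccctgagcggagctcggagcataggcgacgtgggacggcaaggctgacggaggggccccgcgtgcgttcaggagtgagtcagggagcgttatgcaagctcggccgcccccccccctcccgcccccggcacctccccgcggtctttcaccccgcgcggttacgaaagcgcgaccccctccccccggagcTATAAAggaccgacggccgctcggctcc
Cyp2e1: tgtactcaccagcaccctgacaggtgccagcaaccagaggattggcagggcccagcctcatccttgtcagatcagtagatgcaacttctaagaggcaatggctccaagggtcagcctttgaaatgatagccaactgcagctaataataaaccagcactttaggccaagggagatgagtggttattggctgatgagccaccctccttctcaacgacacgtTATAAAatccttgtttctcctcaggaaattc
Counted back from the start, the match began at base 7 in Afp, 28 in Rbp4 and 31 in Cyp2e1. The HNF4 motif CAAAGTCCA was in 0.651% of the promoters of higher genes, which was 1 site in 2 overlapping promoters of Agxt2, and in 0.365% of those of all genes compared. The interferon motif TTTCNNTTT was in 6.84% of the promoters of higher genes, 12.3% of those of lower genes, 7.64% of all and 9.37% of the reference. The NF-kB motif GGGNNTTCC was in 4.56%, 6.89%, 6.15% and 4.98% in the same order. In the 45 promoters of genes lower under both scalings, which belong to 33 genes, the shares were 6.67% for the TATA box, 20% (9 promoters) for the interferon motif and 2.22% for the NF-kB motif.

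Among 15 liver transcription factors, put together after their values were seen, 8 could be compared and 2 were higher, where 1.99% of all genes were. Pcbd1, a transcriptional cofactor and enzyme of pterin metabolism, read 12.51 in Hepa1-6 TECs, 5.66 in HAK-1B TECs and 6.41 in KYN-2 TECs. Onecut2 read 10.15, 5.85 and 6.42. Foxa1 passed background in Hepa1-6 TECs only, with a bound of at least 51.8-fold. Cebpa, a factor of both hepatocytes and myeloid cells, read 10.13, 11.97 and 11.09 and so lay below both xenograft arrays. The liver factors were therefore not all on the same side.

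Target genes of Wnt signaling, in which beta-catenin switches on a set of feedback genes, made up another part of the higher genes. The group of 14 was put together after values were seen. Of 9 that could be compared, 7 were higher under both scalings and none was lower, where 1.9% and 0.313% of all genes were. Nkd1, an inhibitor of the pathway, read 13.18 in Hepa1-6 TECs, 7.07 in HAK-1B TECs and 7.34 in KYN-2 TECs, a difference of 69.3-fold and 57.2-fold. Tbx3, a target gene and transcription factor, read 12.67, 6.58 and 5.15. Rnf43, which removes Wnt receptors from the membrane, read 11.90, 6.14 and 7.90. The other higher members were Znrf3, Tcf7, Lef1 and Apcdd1, while Notum read 12.83, 10.51 and 11.56 and Ccnd1 12.66, 10.63 and 11.44, higher than both arrays but not by 4-fold. Sp5, a target gene and repressor, was above background on the Hepa1-6 TEC array only, at 13.18, with a bound of at least 393-fold. Lgr5, the receptor of R-spondins, Axin2, a scaffold of beta-catenin breakdown, and Wif1, a secreted inhibitor, had bounds of 47.9-fold, 16.9-fold and 5.01-fold. The 11 Wnt genes with a difference or bound past 4-fold pointed one way, a direction that the choice of the genes fixed. With normexp, Tcf7, Lef1 and Apcdd1 fell short of 4-fold (1.70, 1.75 and 1.68). Another probe of Apcdd1 read 5.47, 4.58 and 6.59, between the xenograft arrays, and a further probe was higher at 9.09, 6.86 and 6.87.

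The epithelial list held 2 higher genes of 8 that could be compared (25%, against 1.99% of all genes). They were Krt8 and Krt18, the keratin pair of simple epithelia and of hepatocytes, and the medians of the list were 0.49 and 0.53. Krt8 read 13.96 in Hepa1-6 TECs, 6.71 in HAK-1B TECs and 8.25 in KYN-2 TECs, and a second probe differed by at least 5.88 on the log2 scale. Krt18 read 16.03, 8.64 and 12.31. KYN-2 TECs lay between the other arrays for both keratins. Epcam, an adhesion molecule of epithelial cells, was above background on the Hepa1-6 TEC array only (8.79, at least 18.2-fold), as were Cldn2, a tight junction protein (at least 11.5-fold), and Elf3, an epithelial transcription factor (at least 9.80-fold). Cdh1 (E-cadherin), the defining marker of epithelial cells, read 7.23 in Hepa1-6 TECs and 7.18 in HAK-1B TECs and was not well above background in KYN-2 TECs, and Ocln was not above background on any of the 3 arrays. In a group of 21 junction and polarity genes put together after values were seen, 14 could be compared and 12 were higher. The choice of the genes fixed that count, where 1.99% of all genes were higher. Vil1 (villin), a protein of microvilli, read 12.45, 5.74 and 5.41, Cdh2 (N-cadherin) read 11.90, 6.48 and 6.94, and Ank3, an ankyrin of the lateral membrane, read 10.97, 5.11 and 5.26. Tjp1 and F11r, junction proteins that endothelial cells share, were not among the higher genes, at 10.89, 9.44 and 10.80 for Tjp1 and 12.53, 12.95 and 12.79 for F11r.

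Of 9 oncofetal and liver progenitor genes that could be compared, 4 were higher (44.4%, against 1.99% of all genes) and 1, Spp1, was lower (11.1%, against 3.03%). Besides Afp, these were Sox9, a factor of bile duct and progenitor cells (8.90, 4.60 and 4.80), Igf2bp3, a fetal RNA-binding protein (10.42, 5.86 and 7.01), and Gpc3, a cell surface proteoglycan of fetal liver and hepatoma (9.94, 7.38 and 6.05). Tff3, a secreted trefoil peptide, was above background on the Hepa1-6 TEC array only, at least 12.1-fold higher. H19 and Igf2, fetal genes of 1 imprinted locus, read 8.58, 8.23 and 9.54 and 6.14, 5.42 and 6.60, between the xenograft arrays. In the cholangiocyte list, Sox9 and Tspan8 (11.04, 6.52 and 5.34) were higher and Spp1 was lower, of 3 genes compared (66.7% and 33.3%). Of 15 genes of xenobiotic and lipid metabolism, 3 were higher (20%, against 1.99% of all genes). Gsta3, a glutathione transferase, read 12.41 in Hepa1-6 TECs, 5.12 in HAK-1B TECs and 8.32 in KYN-2 TECs. Fasn, fatty acid synthase, read 14.13, 12.04 and 12.07, which was 4.15-fold after quantile normalization and 3.68-fold after 75th percentile scaling for the smaller difference. Cyp1a1, the main target of the aryl hydrocarbon receptor, passed background in Hepa1-6 TECs only, with a bound of at least 27.8-fold.

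Several lower genes are known from macrophages and microglia. In a group of 12, put together after values were seen because each was lower, Trem2, a lipid receptor of tumor macrophages, read 12.75 in Hepa1-6 TECs, 15.75 in HAK-1B TECs and 15.25 in KYN-2 TECs. Spp1 (osteopontin), a secreted matrix protein of tumor macrophages, read 13.33, 15.86 and 15.73. Both were bright on every array and lower by 5.65-fold and 5.29-fold against the nearer xenograft array. Ms4a7, a macrophage membrane protein, read 10.85, 16.11 and 13.69, with a second probe at 9.21, 14.70 and 12.31. Fcrls, an Fc receptor-like gene of microglia, read 5.46, 12.20 and 9.54, and Gpr84, a receptor for medium-chain fatty acids on myeloid cells, read 7.59, 12.88 and 10.67. In these 3 genes HAK-1B TECs read highest and KYN-2 TECs lay between. Ms4a14, of the same gene cluster as Ms4a7, read 2.85, 9.45 and 8.51, the largest difference of the lower genes after quantile normalization, which was 50.5-fold after quantile normalization and 19.2-fold after 75th percentile scaling against KYN-2 TECs. With normexp its smaller difference was -2.55 on the log2 scale, less than those of Pdpn (-3.22), Syngr1 (-3.06) and Fcrls (-2.88). Havcr2 (TIM-3), an inhibitory receptor, read 7.98, 12.34 and 10.29, and Pdpn (podoplanin), a mucin-like protein of lymphatic endothelium and of activated macrophages, read 8.44, 12.59 and 11.87.

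The macrophage list written for cell types gave another picture. All 24 genes could be compared, 1 (Trem2) was lower (4.17%, against 3.03% of all genes) and none was higher. The medians were -0.79 against HAK-1B TECs and -0.31 against KYN-2 TECs. The defining markers Adgre1 and Csf1r were among the genes that did not pass 4-fold. Csf1r, the receptor of the main macrophage growth factor, read 16.34 in Hepa1-6 TECs, 17.50 in HAK-1B TECs and 16.23 in KYN-2 TECs, and Adgre1 (F4/80) read 12.91, 14.51 and 13.43. The summed quantile-normalized signal of the list, on the linear scale, was 716098 in Hepa1-6 TECs, 1316632 in HAK-1B TECs and 951628 in KYN-2 TECs. It was lowest in Hepa1-6 TECs, as were 15 of the 24 genes, where 9583 of all 19492 genes compared were so too. The part of macrophage content in the lower genes was not tested.

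Pan-endothelial genes did not pass 4-fold in either direction. Pecam1, the gene of the isolation marker CD31, read 8.99 in Hepa1-6 TECs, 9.75 in HAK-1B TECs and 10.81 in KYN-2 TECs, and Cdh5 (VE-cadherin), an adhesion molecule of endothelial cells, read 11.72, 11.85 and 12.90. All 25 pan-endothelial genes were above background on the 3 arrays. Of these, 17 read lower in Hepa1-6 TECs than in both xenograft TECs and none read higher than both, where 9583 and 6047 of all 19492 genes did so. The median difference was -0.38 against HAK-1B TECs and -1.06 against KYN-2 TECs, where all genes had -0.18 and -0.20. Endothelial markers were thus above background on every array, as were all 24 macrophage genes and some genes of hepatocytes and epithelial cells. The part of these other cell types in the differences was not tested.

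Of 22 tip cell and tumor endothelial genes, 1 was lower, near the 3.03% of all genes. Plxdc1 (tumor endothelial marker 7) read 6.85 in Hepa1-6 TECs, 10.04 in HAK-1B TECs and 9.87 in KYN-2 TECs, 8.10-fold lower than the nearer xenograft array. Esm1, a marker of tip cells, read 13.00, 11.59 and 15.53, and Apln, a ligand made by tip cells, read 8.96, 8.78 and 12.87, so that Hepa1-6 TECs lay between the xenografts, near HAK-1B TECs. Other endothelial genes were lower and were grouped after their values were seen. Fbln5, a protein of elastic fibers, read 6.05, 9.54 and 9.36, and a second probe lay at least 3.50 lower on the log2 scale (smaller difference -3.50). Prnd (doppel), a relative of the prion protein made by growing vessels, read 6.07, 9.18 and 9.39. Nts (neurotensin), a secreted peptide, read 8.35, 10.84 and 10.88, and Cd200, an immune inhibitory ligand, read 6.93, 9.53 and 9.72. A second, dimmer probe of Cd200 read 4.08, 5.87 and 5.87 and fell short of 4-fold. Its smaller difference was -1.80 on the log2 scale after quantile normalization and -0.49 after 75th percentile scaling. In these 4 genes the xenograft arrays lay far closer to each other than to Hepa1-6 TECs. Htr2b, a serotonin receptor, read 8.87 in HAK-1B TECs and 8.67 in KYN-2 TECs and was not well above background in Hepa1-6 TECs. After quantile normalization its bound was at least 72.4-fold below the xenograft mean, a value that depends on the scaling.

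Among other lower genes with a large difference, Gpr18, a receptor of lymphocytes and macrophages, read 2.86, 7.99 and 6.93. Bdh2, an enzyme of ketone and siderophore metabolism, read 3.25, 7.23 and 7.63, Cthrc1, a secreted collagen triple helix protein, read 3.38, 6.97 and 7.58, and Bdkrb2, the bradykinin receptor, read 3.75, 8.20 and 7.29. St8sia6, a sialyltransferase, read 3.30, 8.06 and 6.66 and was lower after quantile normalization only, since its smaller difference was 3.76-fold after 75th percentile scaling. Mir143hg, the host transcript of miR-143 and miR-145, read 3.16, 7.39 and 7.49. All of these were near the bottom of the scale in Hepa1-6 TECs. With another background correction (normexp), none of the 6 stayed past 4-fold, and the smaller difference on the log2 scale was -1.33 for Gpr18, -1.40 for Bdh2, -1.30 for Cthrc1, -1.46 for Bdkrb2, -1.15 for St8sia6 and -1.70 for Mir143hg. Syngr1, a synaptic vesicle protein, showed that a gene can hold probes that differ in opposite directions. Its brightest probe read 10.42, 13.78 and 13.54 and was lower, whereas a second probe read 14.92, 6.66 and 5.84.

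Transcripts around miR-155, a microRNA of activated immune cells, were measured by several probes, most of them lower in Hepa1-6 TECs. The files give coordinates in build mm9 (NCBI37), in which 4 long noncoding probes and 1 probe of the host transcript lie within a stretch of chromosome 16. The long noncoding probe at chr16:84708088-84708147 was not well above background on any of the 3 arrays. The probe at chr16:84705907-84705966 read 5.45 in Hepa1-6 TECs, 8.99 in HAK-1B TECs and 9.62 in KYN-2 TECs, and that at chr16:84708738-84708797 read 7.21, 9.77 and 10.01. The probe at chr16:84707486-84707545 was not well above background in Hepa1-6 TECs and read 7.13 and 7.29 in the xenograft TECs. Mir155hg, at chr16:84715433-84715492, was not well above background in Hepa1-6 TECs and read 5.38 and 5.90, at least 8.23-fold below the xenograft mean, or 3.16-fold after 75th percentile scaling. The next gene, Mrpl39, a mitochondrial ribosomal protein, read 10.57, 10.37 and 10.56. The mature microRNA itself was not measured by these arrays. Its RefSeq sequence, from build GRCm38.p6 (chr16:84714143-84714165, plus strand), is shown to identify the product of the locus, with the seed (bases 2 to 8) in capitals.
mmu-miR-155-5p: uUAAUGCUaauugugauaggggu

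Genes of lymphocytes gave small groups in both directions. Of 29 T and NK cell genes compared, 3 were higher (10.3%, against 1.99% of all genes) and none was lower. Gzma, a protease of cytotoxic granules, read 14.69 in Hepa1-6 TECs, 8.32 in HAK-1B TECs and 10.98 in KYN-2 TECs, and Gzmb, another granule protease, read 10.51, 7.36 and 8.25. The other was Tcf7, which is also one of the Wnt genes above. The T cell receptor genes Cd3e (8.72, 9.04 and 9.73) and Cd3d (5.53, 7.51 and 9.21) read below both xenograft arrays, and the NK cell receptor Ncr1 read 8.23, 6.45 and 6.17. All 14 B cell genes compared read below both xenograft arrays, as did 9583 of all 19492 genes, with medians of -1.66 and -1.74. Jchain and Cr2, 2 of the 14, were lower after quantile normalization only (14.3%, against 3.03% of all genes). Ms4a1 (CD20), the B cell surface marker, read 8.26, 10.99 and 9.87. Among cytokines and chemokines, Ccl17, a ligand of the chemokine receptor CCR4, was higher at 9.77, 6.61 and 6.84. Cd209b, a lectin of liver sinusoidal and marginal zone cells, read 9.74, 6.27 and 5.54. It was the 1 higher member among 20 genes of liver sinusoidal endothelium (5%, against 1.99% of all genes). Stab2, the defining scavenger receptor of that endothelium, read 13.80, 12.70 and 14.17.

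Stromal lists held 1 higher member each, of 23 genes of fibroblasts and 20 of stellate cells and smooth muscle, near the 1.99% of all genes. Dcn (decorin), a proteoglycan of interstitial matrix, read 14.57 in Hepa1-6 TECs, 10.45 in HAK-1B TECs and 11.46 in KYN-2 TECs, whereas the fibrillar collagens Col1a1 (10.68, 9.29 and 11.33) and Col3a1 (10.27, 9.29 and 10.55) lay between the xenograft arrays. Ngfr, a neurotrophin receptor of stellate cells, read 10.04, 4.68 and 6.32, and Pdgfrb, the receptor that defines pericytes and stellate cells, read 7.46, 6.47 and 7.73. Cell cycle genes were shifted without passing 4-fold. Of 44 compared, 39 read higher in Hepa1-6 TECs than in both xenograft TECs, where 6047 of all 19492 genes did, and none passed 4-fold against both, with medians of 1.23 and 0.85. Of 20 housekeeping genes none passed, with medians of 0.15 and 0.13.

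The lists not yet described held few called genes. In the mesothelial list, Gpm6a, a membrane glycoprotein, was lower after quantile normalization only, of 4 compared (25%, against 3.03% of all genes). No gene passed 4-fold among 16 genes of dendritic cells and MHC class II (medians -1.20 and 0.06), 40 interferon-stimulated and MHC class I genes (-0.26 and -0.21), 10 erythroid and platelet genes (0.70 and -1.70), 7 mast cell genes (-1.06 and 0.38), 28 hypoxia and glycolysis genes (0.00 and -0.90) or 28 immediate early and stress genes (-0.32 and -0.53). Of 26 inflammatory cytokines and chemokines, Ccl17 was the 1 called (3.85% higher, against 1.99% of all genes), and the medians of the list were -1.14 and -0.86.

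The array of cultured Hepa1-6 cells showed which called genes that line makes without a host. It is 1 array on another slide, and its values were normalized together with the 3 TEC arrays. Of the 388 higher genes, 296 were well above background in cultured Hepa1-6 cells (76.3%), close to the share over all genes compared (77.8%), against 88 of the 591 lower genes (14.9%). Cultured cells were at least 4-fold above both xenograft TEC arrays for 218 of the higher genes (56.2%), against 6.22% of all genes and 1.69% of the lower genes. Igfbp1 read 15.23 in cultured cells, Afp 16.01, Alb 13.98 and Krt18 17.62. Among the genes lower under both scalings, cultured cells were at least 4-fold below both xenograft arrays for 56 of 61 (91.8%), against 47.2% of all 591 lower genes and 16.2% of all genes. Transcripts of the tumor line thus accompanied the higher genes, and their part in the difference was not tested.

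A further 92 higher genes were not well above background in cultured Hepa1-6 cells, and 90 of them were higher under both scalings. They included hepatocyte genes such as Fgg, Apoh, Ahsg, F2, Cyp2e1, Tat and Itih4, with Adh1, an alcohol dehydrogenase (10.81 in Hepa1-6 TECs, 5.35 in HAK-1B TECs and 6.96 in KYN-2 TECs), and Mug1, a protease inhibitor of mouse plasma (11.30, 6.04 and 6.38). Krt23, a keratin, read 12.01, 6.54 and 4.96. Gzma, Gzmb, Ngfr and Cd209b were also among them, as was Dkk3, a secreted protein of the Dickkopf family (11.24, 7.85 and 7.66). The hepatocyte genes Alb, Rbp4, Fgb, Serpina1a, Hpx, Ambp and Kng1 were above background in cultured cells. The 14 higher hepatocyte genes were therefore split evenly by this mark, which was stricter on the cultured array than on the TEC arrays. Those that missed it read between 2.23 (Cyp2e1) and 5.93 (Tat) in cultured cells, so the split is not one of present and absent transcripts.

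**Figure D5:**
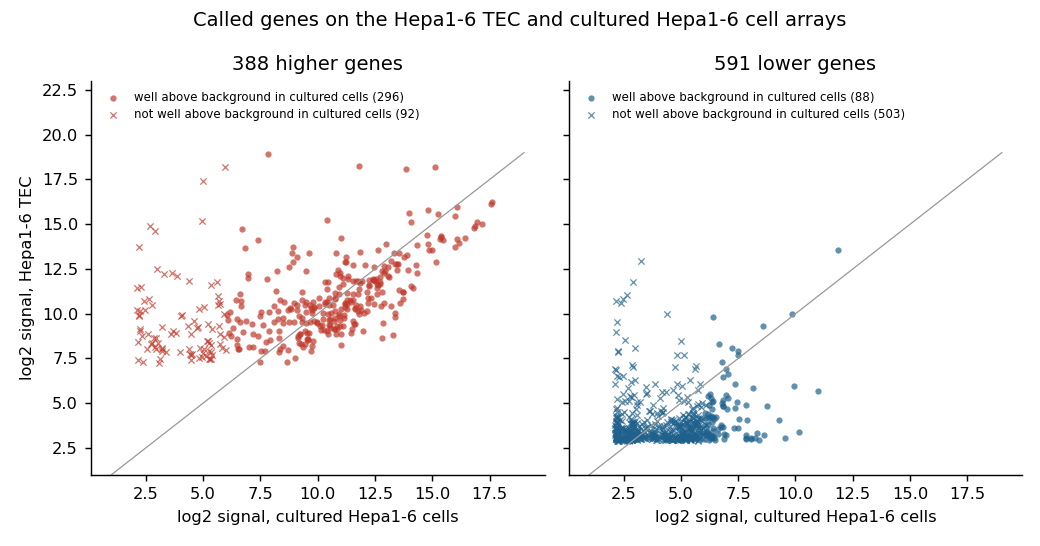
Log2 signal on the Hepa1-6 TEC array (vertical) against the array of cultured Hepa1-6 cells (horizontal) for the 388 higher genes (left) and the 591 lower genes (right), normalized together with the xenograft TEC arrays; the line marks equal values and crosses are genes not well above background in cultured cells. On the left the 296 circles scatter on both sides of the line and the 92 crosses lie above it.

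Genes above background on only 1 side were counted by their lower bounds. On the Hepa1-6 TEC array only, 754 genes had a bound of at least 4-fold, of which 32 had a spot marked as an outlier, and 722 were left. Without these, the largest bounds among genes with a symbol were those of Sp5, Pnma5, a gene of the paraneoplastic antigen family (12.65, at least 275-fold), and Dapl1, a death-associated protein-like gene (12.03, at least 179-fold). Dapl1 was not above background in cultured cells, and of the 722 genes 213 were with the same probe. On both xenograft arrays only, 124 genes had such a bound, and 19 after 75th percentile scaling. Of these 124, 8 were above background with the same probe in cultured Hepa1-6 cells.

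The same arrays were fitted with limma, which takes its error from the spread between the 2 xenograft arrays. It draws the error of each probe toward a value pooled over all probes (3.22 prior degrees of freedom). With 1 residual degree of freedom, the fit takes the lone Hepa1-6 TEC array to vary as the xenografts do. No probe of 29552 passed an adjusted p of 0.05, the smallest adjusted p was 0.0517, and 6283 probes had an unadjusted p under 0.05. No other test was run, and the calls above rest on size alone. Just inside the rule lay Pla1a, a phospholipase, with a smaller difference of 2.001 on the log2 scale, and just outside it lay Gm5168 with 1.9997.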

How the data were processed

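RNA of CD31-positive cells was labeled with Cy3 and hybridized to 1-color mouse arrays. The authors deposited scanner files holding linear spot intensity after background subtraction by Agilent Feature Extraction (9.5.1.1 in the processing notes and 10.7.1.1 in the file headers) and not normalized between arrays. They also deposited a table of normalized intensity, used here as an alternative. Coordinates in the files are of build mm9 (NCBI37). Log2 values were computed here. Control spots were left out, spots of 1 probe were averaged, and log2 signals were quantile normalized over the 3 TEC arrays, which makes small differences of dim probes larger or smaller with the shape of each array. Probes well above background on all 3 arrays were kept (29552 of 56605), and a gene took its brightest probe. Genes were called by size (4-fold against both xenograft arrays). Gene symbols of 13531 of 19492 genes matched the RefSeq table, and promoters of 11649 genes were found there.

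The comparison and the 26 gene lists were chosen with earlier results of these data known. Genes named were drawn from the 10 largest differences each way among plain symbols, up to 4 members of each list past the rule, the 5 largest bounds each way, Pecam1 and the first 4 genes of each list; other genes named were chosen after their values were seen. limma 3.58.1 in R 4.3.3 was fitted as a separate result, and the scripts were tested on simulated data. Python 3.11.15 ran everything else, with pandas 2.3.3, numpy 2.4.6, scipy 1.17.1 and matplotlib 3.10.9. The array of liver sinusoidal endothelial cells was not used for any comparison, and some genes and 1 motif are not reported here.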

Additional observations from a re-analysis of the deposited data

How the results depend on the processing

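The counts by size depended on the scaling, the filter and the fold. Higher genes numbered 388, against 813 without normalization between arrays, 256 with normexp background correction (offset 50), 2742 when a probe needed to be above background on 1 array, 1256 at 2-fold and 154 at 8-fold. Lower genes numbered 591, against 71 after 75th percentile scaling, 11 without normalization, 28 with normexp, 2656 at 2-fold, 54 at 8-fold, 172 by the ratio and Z-score of the methods and 917 when any probe of a gene counted. Settings added after seeing the data left 61 lower genes under both scalings and 230 with a deposited signal of at least 100. The share of higher genes (39.6%, exact 95% interval 36.6% to 42.8%, counting error only) was 86.1% after 75th percentile scaling, 98.7% without normalization, 45.1% by pair, 90.1% with normexp, 47.6% in the deposited table, 76.5% with 1 array above background, 43.2% without lincRNA probes, 32.1% at 2-fold, 74.0% at 8-fold, 69.3% by the methods' rule, 33.3% with any probe, 85.9% under both scalings and 62.8% with the signal floor. Leaving out 1 xenograft array gave 513 higher and 1195 lower genes without HAK-1B TECs and 642 and 1175 without KYN-2 TECs, with shares between 30.0% and 35.3%. Genes above background in Hepa1-6 TECs only (754) numbered 1715 after 75th percentile scaling, 2844 without normalization, 1664 at 2-fold and 300 at 8-fold, and those in both xenograft TECs only (124) numbered 19, 8 without normalization and 37 at 8-fold, and between 260 and 456 with 1 xenograft array left out. limma called 437 probes without normalization and 0 in the other settings. The cause of these changes was not tested. Genes named with a small difference could change sign in an alternative. Tjp1 differed from KYN-2 TECs by 0.09 after quantile normalization and by -0.04 after 75th percentile scaling (log2). The share of higher genes moved from the smaller to the larger part of all called genes in several alternatives. Without normalization the median difference over all genes moved from -0.18 and -0.20 to 0.12 and 0.86. Across quantile normalization, 75th percentile scaling and normexp, 249 higher and 28 lower genes were called in all 3. No paired analysis was possible because the 3 kinds of TECs were each measured once.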

Other observations

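Ribonucleases of the eosinophil family were higher in Hepa1-6 TECs, without the other granule genes of that cell. Rnase2a read 14.93 (log2 signal) in Hepa1-6 TECs, 10.91 in HAK-1B TECs and 12.06 in KYN-2 TECs, Ear12 read 14.42, 10.67 and 11.66, and Ear10 was higher by 11.7-fold and 5.59-fold. Ear1 and Ear2 passed 4-fold after quantile normalization only. These 5 genes are near-identical copies, so a probe may read several of them and their values are not independent. The eosinophil granule genes Epx (9.11, 9.04 and 5.89) and Prg2 (12.18, 12.36 and 9.32) read about as high in HAK-1B TECs. Of the 5 ribonucleases, Ear2 was above background in cultured Hepa1-6 cells (6.72) and the other 4 were not.

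Neutrophil genes set the xenograft arrays apart, with Hepa1-6 TECs between them. Of 18 compared, 15 lay between, with medians of -0.999 against HAK-1B TECs and 1.85 against KYN-2 TECs. S100a8, a calcium-binding protein of neutrophils, read 11.98, 14.70 and 9.27. Genes of the Y chromosome were above background on all 3 TEC arrays, although the methods name female mice. Eif2s3y read 7.51, 10.38 and 9.23, and all 4 read below both xenograft arrays. Pla2g2a, a phospholipase gene that is disrupted in some inbred strains, was above background on the Hepa1-6 TEC array only (7.49, at least 7.67-fold), and H2-Ea-ps, a class II gene that differs between haplotypes, read 10.22, 12.77 and 10.46.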
